A study of Mus musculus with 4 samples.

Results

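CatSper and sperm ion channel genes were examined in single-cell RNA sequencing of dissociated mouse testis. The 10 genes were taken by symbol from the 55450 genes of the count matrices, and all 10 were found. They are Catsper1, Catsper2, Catsper3 and Catsper4, which encode the pore subunits of the CatSper calcium channel, Catsperb, Catsperd and Catsperz, which encode its auxiliary subunits, Slc9c1, Kcnu1 and Lrrc52. The study has 2 libraries from mice labelled HFD, for a high-fat diet, and 2 from mice labelled ND, for a normal diet. The strain, age, composition of the diets and length of feeding are not given in the sources used here. The labels do not tie the libraries to individual mice, so the p-values below measure the spread between libraries, which may be technical.

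CatSper is a calcium channel of the sperm tail. It opens as the cytoplasm becomes alkaline, and the calcium that enters drives the vigorous tail beat called hyperactivation, which sperm need to reach and fertilise the egg. Male mice that lack any of the 4 pore subunits are infertile. Kcnu1 encodes SLO3, a sperm potassium channel that hyperpolarises the cell, and Lrrc52 encodes its auxiliary subunit. Slc9c1 encodes a sperm-specific relative of the sodium/proton exchangers that carries a cyclic nucleotide-binding domain. Sperm make almost no new RNA, so the RNA for these proteins is made earlier, in spermatocytes, which are the meiotic cells, and in round spermatids, the haploid cells that follow. Round spermatids then elongate and replace their histones with transition proteins (Tnp1, Tnp2) and protamines (Prm1, Prm2).

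The genes lie on 9 chromosomes of the GRCm38 build (GENCODE M21). Catsper1 lies at chr19:5335741-5344280, Catsper2 at chr2:121392631-121413792, Catsper3 at chr13:55784568-55808998 and Catsper4 at chr4:134211970-134227383. Among the auxiliary subunits, Catsperb lies at chr12:101404653-101626009, Catsperd at chr17:56628143-56664456 and Catsperz at chr19:6922371-6925380. Slc9c1 lies at chr16:45535309-45607001, Kcnu1 at chr8:25849623-25937939 and Lrrc52 at chr1:167445669-167466780. Catsperz shares 1415 bases with Kcnk4 on the same strand, so the reads counted for Catsperz could in part belong to Kcnk4. Kcnk4 itself was counted at 1.16 UMIs per 1000000 UMIs in the whole testis against 1369 for Catsperz. Catsper2 overlaps Pdia3 by 18 bases on the other strand.

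The RefSeq promoter table (GRCm38.p6) matched 8 of the 10 genes, all but Catsper1 and Kcnu1. The 250 bases before the RefSeq start of 6 of them are shown. These genes fall into 2 groups by the stage of their highest level, which is described below. The first 3 were highest in spermatocytes, the last 3 in round spermatids. The windows of Catsperd and Slc9c1, also highest in spermatocytes, are not shown. Capitals mark CCAAT or, on the other strand, ATTGG, and in Catsper2 also CGTCA, the reverse of TGACG.
Catsper2, chr2:121413793-121414042, minus strand: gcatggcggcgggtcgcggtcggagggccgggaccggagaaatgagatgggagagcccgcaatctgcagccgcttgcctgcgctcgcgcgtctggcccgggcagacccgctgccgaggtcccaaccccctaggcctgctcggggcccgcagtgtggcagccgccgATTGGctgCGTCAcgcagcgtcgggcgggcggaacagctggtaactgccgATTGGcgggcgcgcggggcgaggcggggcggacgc
Catsperb, chr12:101404423-101404672, plus strand: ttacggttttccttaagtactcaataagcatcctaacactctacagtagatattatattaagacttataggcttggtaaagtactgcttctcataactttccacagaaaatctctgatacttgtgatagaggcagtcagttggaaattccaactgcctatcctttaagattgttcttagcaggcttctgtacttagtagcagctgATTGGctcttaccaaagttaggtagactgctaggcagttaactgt
Catsperz, chr19:6925381-6925630, minus strand: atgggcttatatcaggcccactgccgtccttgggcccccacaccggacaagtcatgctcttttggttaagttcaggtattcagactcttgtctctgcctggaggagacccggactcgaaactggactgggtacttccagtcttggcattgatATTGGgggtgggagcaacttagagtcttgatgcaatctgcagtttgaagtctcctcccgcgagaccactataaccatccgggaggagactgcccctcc
Catsper3, chr13:55784329-55784578, plus strand: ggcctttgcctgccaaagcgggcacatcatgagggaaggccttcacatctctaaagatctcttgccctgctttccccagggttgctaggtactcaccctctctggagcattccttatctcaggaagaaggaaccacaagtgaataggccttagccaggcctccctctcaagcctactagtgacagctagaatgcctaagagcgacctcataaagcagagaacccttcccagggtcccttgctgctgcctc
Catsper4, chr4:134227384-134227633, minus strand: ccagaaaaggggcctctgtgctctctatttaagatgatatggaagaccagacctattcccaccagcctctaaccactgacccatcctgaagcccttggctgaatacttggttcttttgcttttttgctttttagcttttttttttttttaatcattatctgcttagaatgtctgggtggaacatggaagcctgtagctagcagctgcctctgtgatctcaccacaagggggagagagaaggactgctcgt
Lrrc52, chr1:167466781-167467030, minus strand: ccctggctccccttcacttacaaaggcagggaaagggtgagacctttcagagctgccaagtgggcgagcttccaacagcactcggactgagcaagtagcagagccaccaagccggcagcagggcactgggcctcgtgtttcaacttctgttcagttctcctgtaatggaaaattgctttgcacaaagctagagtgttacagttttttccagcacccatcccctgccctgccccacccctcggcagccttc

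CCAAT was found in 4 of the 8 windows, those of Catsper2, Catsperb, Catsperz and Slc9c1, and in 33.85% of 32851 RefSeq windows of the same length. It was in 0 of the 3 windows of genes highest in round spermatids and in 4 of the 5 of genes highest in spermatocytes. The exception was Catsperd, whose window is not shown, so the windows shown divide by CCAAT more cleanly than all 8 do. AACTG was in 6 of the 8 windows (39.1% of all windows) and not in those of Catsper3 and Catsper4. TGACG was in 1 of the 8, Catsper2 (17.8% of all), and the longer TGACGTCA, which contains it, in 0 (1.55% of all). GTTGCC was in 0 of the 8 (10.4% of all). Each motif was searched on both strands. A match is a string of letters and says nothing on whether a factor binds there.

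The 4 libraries held 143748262 to 154221188 UMIs (unique molecular identifiers, 1 for each captured RNA molecule) in 13561 to 15290 barcodes, of which 13122 to 14468 were kept as cells. Between 42 and 65 barcodes were shared by any pair of libraries. Cells were clustered and clusters were named from marker genes, so each class is only like the cell type it is called. The germ-cell classes were early-spermatocyte-like (3216 cells), pachytene-like (5194), late-spermatocyte-like (4161), round-spermatid-like (11696) and elongating-spermatid-like (9020). All markers of each of these classes were detected in it. The summed level of the 10 pachytene markers was, however, higher in early-spermatocyte-like than in pachytene-like cells (values below). In the main clustering no cluster could be named spermatogonia-like, and 32.4% of kept cells stayed unnamed. A finer clustering (Leiden resolution 2) did name a spermatogonia-like class, of 978 cells. With a limit of 10% mitochondrial UMIs such a class held 942 cells. The pachytene-like class is 1 shallow cluster with a median of 3261 UMIs a cell, whose leading genes were mitochondrial ribosomal and long noncoding RNAs. A deeper cluster (3277 cells, median 26220 UMIs) was nearest to the pachytene markers but stayed unnamed because a late-spermatocyte marker was among its top 10 genes.

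The 10 genes fell into 2 groups of 5 by the class of their highest level. Levels are UMIs per 1000000 UMIs of the class (CPM) in each library, given as mean ± SD over the 4 libraries. Catsper1, Catsper3, Catsper4, Kcnu1 and Lrrc52 were highest in round-spermatid-like cells. Catsper2 and Catsperz were highest in late-spermatocyte-like cells, and Catsperb, Catsperd and Slc9c1 in pachytene-like cells. For Slc9c1 this rests on the shallow cluster: in the deeper unnamed cluster nearest to the pachytene markers it was at 102 ± 3.54 CPM, below its 122 in late spermatocytes. Catsperb (48.2 ± 2.302) and Catsperd (135 ± 2.01) were lower there than in the shallow cluster and still above their late-spermatocyte levels. The division into 2 groups of 5 is the same with either cluster. The 10 pachytene markers summed to 5010 to 5240 CPM in the pachytene-like class. They summed to 6732 to 6891 in early and 4831 to 4944 in late spermatocytes. The 12 elongating-spermatid markers summed to 8961 to 10032 CPM in the pachytene-like class, 3795 to 4866 in early and 3785 to 4646 in late spermatocytes. These sums do not single out the class as pachytene.

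**Figure D1:**
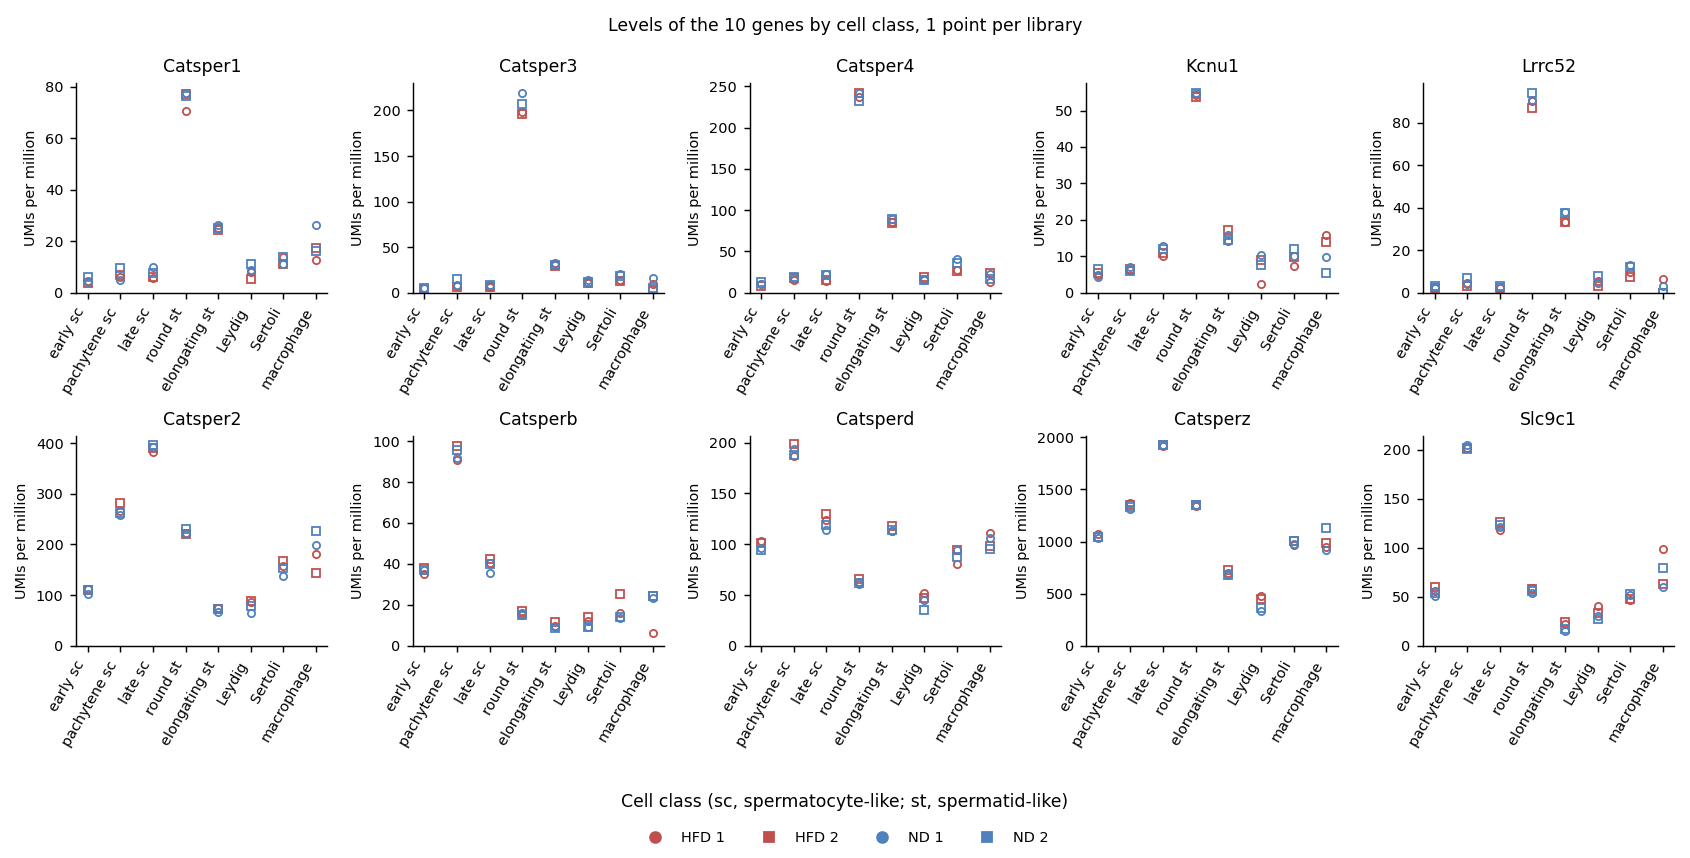
Level of each gene (UMIs per 1000000 UMIs of the class, linear axes from 0) in 5 germ-cell classes and 3 somatic classes, with 1 point for each library (red, HFD; blue, ND). The top row holds the 5 genes highest in round-spermatid-like cells and the bottom row the 5 highest in spermatocyte-like cells. Catsper3 stood between 196 and 219 CPM in round-spermatid-like cells and between 4.17 and 5.64 in early-spermatocyte-like cells. The Sertoli-like class is a poor somatic reference. Its 8 Sertoli markers summed to 1005 to 1306 CPM, under the 1567 to 1793 of the Leydig-like class. The 12 elongating-spermatid markers summed to 80631 to 94915 CPM in the Sertoli-like class, against 5913 to 8098 in the Leydig-like class.

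Of the pore subunits, 3 shared a pattern. Catsper1 was at 75.5 ± 3.39 CPM in round-spermatid-like cells, with 70.5 and 77.1 in HFD 1 and 2 and 77.8 and 76.6 in ND 1 and 2. It was at 25.2 ± 0.8701 CPM in elongating-spermatid-like cells and at 4.64 to 7.34 in the 3 spermatocyte classes. Its spermatocyte classes overlapped between libraries, whereas the round and elongating classes stood apart from each other and from the rest. Catsper3 was at 205 ± 10.5 CPM in round-spermatid-like cells (198 and 196 in HFD, 219 and 207 in ND). It was at 30.8 ± 1.41 in elongating cells and at 4.95 ± 0.639 in early spermatocytes, so that its highest level was 41.4 times its lowest. Catsper4 was at 238 ± 4.86 CPM in round-spermatid-like cells (237 and 242 in HFD, 242 and 232 in ND), at 87.3 ± 2.53 in elongating cells and at 11.01 ± 2.09 in early spermatocytes. In all 4 libraries each of these 3 genes was highest in the round class, next highest in the elongating class and lower in every spermatocyte class.

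Catsper2, the remaining pore subunit, did not share this pattern. It was at 390.5 ± 6.44 CPM in late-spermatocyte-like cells, with 382 and 391 in HFD and 393 and 397 in ND. It was at 267 ± 10.7 in pachytene-like cells, 224 ± 4.104 in round spermatids, 109 ± 4.45 in early spermatocytes and 71.7 ± 3.002 in elongating spermatids. No neighbours in this order overlapped between libraries.

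The auxiliary subunits were also highest in spermatocytes. Catsperb, a large transmembrane subunit, was at 94.04 ± 3.202 CPM in pachytene-like cells, at 39.5 ± 2.82 in late and 36.9 ± 1.18 in early spermatocytes, which overlapped, and at 9.78 ± 1.16 in elongating spermatids. Catsperz, a small cytoplasmic subunit, was at 1926 ± 5.09 CPM in late-spermatocyte-like cells, with 1921 to 1932 over the 4 libraries. Its levels in round spermatids (1349.6 ± 3.84) and pachytene-like cells (1341 ± 24.1) overlapped, and its lowest germ-cell level was 697 ± 23.4 in elongating cells. Catsperd, another transmembrane subunit, was at 192 ± 5.43 CPM in pachytene-like cells (187 and 198 in HFD, 194 and 187 in ND) and was lowest in round spermatids, at 62.5 ± 2.29. In elongating cells it was at 115 ± 2.18 (113 and 118 in HFD, 113 and 114 in ND). Of the 10 genes, Catsperd alone had a higher level there than in round spermatids.

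The 2 potassium channel genes followed the first pattern and the exchanger gene the second. Kcnu1 was at 54.4 ± 0.551 CPM in round-spermatid-like cells (54.3 and 53.7 in HFD, 54.9 and 54.8 in ND), at 15.5 ± 1.37 in elongating cells and at 11.4 ± 1.26 in late spermatocytes. Lrrc52 was at 90.5 ± 2.85 CPM in round-spermatid-like cells (90.2 and 87.1 in HFD, 90.7 and 94.04 in ND) and at 2.48 to 4.66 in the spermatocyte classes. Lrrc52 in round spermatids was 36.5 times its lowest class. Slc9c1 was at 202 ± 1.48 CPM in pachytene-like cells (202 and 202 in HFD, 204 and 201 in ND), at 122 ± 3.23 in late spermatocytes and at 56.8 ± 2.22 in round spermatids. It was at 19.6 ± 4.21 CPM in elongating spermatids, and its highest level was 10.3 times that.

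Free RNA in the droplets limits what the low levels mean. Macrophage-like cells, which should not make these RNAs, held 993 CPM of Catsperz, 187 of Catsper2, 103 of Catsperd, 75.03 of Slc9c1, 19.6 of Catsperb, 19.2 of Catsper4, 18.3 of Catsper1, 11.3 of Kcnu1, 8.76 of Catsper3 and 2.42 of Lrrc52. Several germ-cell levels are at or below these. They are Catsper1 and Catsper4 in all 3 spermatocyte classes, Catsper3 in early and late spermatocytes and Kcnu1 in early and pachytene-like spermatocytes. They are also Catsper2 in early spermatocytes, Catsperd in early spermatocytes and round spermatids, Catsperb in round spermatids, Slc9c1 in early spermatocytes and round spermatids, and Catsper2, Catsperb, Catsperz and Slc9c1 in elongating spermatids. CPM alone does not show these levels to be free RNA, because the classes differ in depth and a droplet's free RNA weighs less in a deep cell. Per cell, and without thinning, Catsper2 was found in 80.4% of early-spermatocyte-like cells against 37.6% of macrophage-like cells, at mean median depths of 17520 and 2616 UMIs. Catsperd was in 73.4% of early spermatocytes and 54.6% of round spermatids against 23.3%, and Slc9c1 in 55.5% and 50.6% against 18.1%. In late spermatocytes Catsper4 was in 28.7% and Catsper3 in 12.8% of cells, against 5.96% and 2.74%. Slc9c1 in elongating spermatids was below macrophage-like cells by the share of cells as well (13.5%). With cells thinned to equal depth, as described below, Catsper2 was in 22.09% of early spermatocytes against 28.03% ± 4.66 of macrophage-like cells. Catsperd was then in 16.45% of early spermatocytes and 11.97% of round spermatids against 15.53% ± 4.77. Slc9c1 was in 9.40% and 10.71% against 12.23% ± 0.867. In late spermatocytes Catsper4 was in 5.625% against 3.235% ± 3.21, and Catsper3 in 2.101% against 1.455% ± 1.201. How much of these levels is free RNA was not tested. The comparison also depends on the somatic class. Leydig-like cells, which are deeper (median 5797 UMIs a cell against 2474 in macrophage-like cells), held less of 8 of the 10 genes, with 406 CPM of Catsperz, 78.9 of Catsper2, 44.7 of Catsperd, 33.02 of Slc9c1, 16.6 of Catsper4 and 11.3 of Catsperb. Of the levels just listed, those of Catsper2 (109), Catsperd (98.9) and Slc9c1 (55.1) in early spermatocytes lie above Leydig-like cells. So do Catsper4 in pachytene-like (17.4) and late spermatocytes (18.8), Catsperd (62.5), Slc9c1 (56.8) and Catsperb (15.96) in round spermatids, and Catsperz in elongating spermatids (697). These are at or below the one class and above the other. Leydig-like cells held more than macrophage-like cells of Catsper3 (11.8) and Lrrc52 (5.297), above the level of both genes in each spermatocyte class. The highest somatic level was in lymphocyte-like or fibroblast-like cells for 9 of the 10 genes and in macrophage-like cells for Catsperd. The highest germ-cell class stood 1.59 times (Catsperz) to 6.19 times (Lrrc52) above that highest somatic level. In elongating-spermatid-like cells Catsper1 (25.2 CPM), Catsper3 (30.8), Catsper4 (87.3) and Kcnu1 (15.5) were above macrophage-like cells and below the means of lymphocyte-like cells, which were 31.1, 51.4, 91.3 and 19.3 CPM and varied between libraries (10.3 to 73.7 for Catsper1). For these 4 genes the round class was the 1 germ-cell class above every somatic class, so their elongating levels lie within the range of somatic classes. Catsperd in elongating cells (113 to 118 over the libraries) was close to macrophage-like cells (95.2 to 112).

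The share of cells with a UMI was compared after each cell was thinned to 2000 UMIs, which left out 80 of 11696 round-spermatid-like, 207 of 4161 late-spermatocyte-like, 658 of 5194 pachytene-like, 468 of 9020 elongating-spermatid-like and 112 of 390 macrophage-like cells. Catsper3 was then found in 32.4% ± 1.21 of round-spermatid-like cells (mean ± SD, n = 4 libraries), 2.101% ± 0.438 of late-spermatocyte-like cells and 1.46% ± 1.201 of macrophage-like cells. Before thinning the shares were 85.5%, 12.8% and 2.74%, at mean median depths of 11950 UMIs, 16150 UMIs and 2616 UMIs. Catsper4 was in 37.1% ± 1.79 of thinned round-spermatid-like cells against 3.23% ± 3.21 of macrophage-like cells (88.96% and 5.96% before thinning). Lrrc52 was in 15.2% ± 0.435 against 0.725% ± 0.837 of the same classes (60.8% and 0.793% before thinning). Slc9c1 was in 33.5% ± 1.09 of thinned pachytene-like cells against 12.2% ± 0.867 of macrophage-like cells (47.6% and 18.1% before thinning). Its thinned share in elongating spermatids, 4.71% ± 1.41 (13.5% before), was under that of macrophage-like cells.

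Neighbouring classes were compared in 1 edgeR quasi-likelihood fit with library as a term, and a gene is called where its Benjamini-Hochberg adjusted p over all genes is under 0.05. The classes were formed from the expression of these same cells, so the tests describe size against the spread between libraries and are no independent support. Of the 40 comparisons (10 genes in 4 steps) 36 were called. From early to pachytene-like spermatocytes 8 of 10 were called, all higher, where 68.8% of 19304 genes were called, 34.9% higher and 33.9% lower. From pachytene-like to late spermatocytes 9 of 10 were called (62.5% of all genes), 5 higher (28.2%) and 4 lower (34.3%). From late spermatocytes to round spermatids all 10 were called (86.7% of all genes), 5 higher (44.4%) and 5 lower (42.3%). From round to elongating spermatids 9 of 10 were called (73.3% of all genes), 1 higher (35.7%) and 8 lower (37.6%). The counts of the first 2 steps depend on which cells stand for pachytene. With the deeper unnamed cluster in place of the shallow one, 5 genes were called higher and 2 lower (Catsper3 and Catsper4) in the first step, and 8 higher and 2 lower (Catsperb and Catsperd) in the second, and Leiden resolution 2 gave the same counts. With doublets kept, 10 were called higher in the first step, and 2 higher and 6 lower in the second. The last 2 steps kept their directions under these settings. With shares this high among all genes, the sizes say more than the calls.

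The step from late spermatocytes to round spermatids divided the genes. Lrrc52 was higher by 5.41 ± 0.06898 (log2 ratio ± SE), Catsper3 by 5.17 ± 0.0622, Catsper4 by 3.97 ± 0.0609, Catsper1 by 3.67 ± 0.0674 and Kcnu1 by 2.54 ± 0.0546. Catsperb was at -1.03 ± 0.0465, Slc9c1 at -0.82 ± 0.0423, Catsperd at -0.68 ± 0.0369, Catsper2 at -0.52 ± 0.0313 and Catsperz at -0.23 ± 0.0252. The median log2 ratio of all 19304 genes was 0.028. In the step to elongating spermatids Catsperd rose by 1.48 ± 0.0381, and Catsper3 was lowest at -2.13 ± 0.0513. Between pachytene-like and late spermatocytes, Catsper2 (0.85 ± 0.0356) and Catsperz (0.83 ± 0.0261) rose, while Catsperb (-0.94 ± 0.0511) and Slc9c1 (-0.41 ± 0.0469) fell. Against the deeper unnamed cluster Slc9c1 was higher in late spermatocytes (0.33 ± 0.0434, called), and Catsperb (-0.22 ± 0.0422), Catsper2 (1.02 ± 0.0304) and Catsperz (0.25 ± 0.0217) kept their direction. These ratios use TMM scaling, which shifts the ratio against that of plain totals by -0.21, 0.31, 0.28 and 0.61 in the 4 steps in order of development. On plain totals Catsperd in elongating spermatids was still higher, by 0.87. Of the 40 comparisons 1 changed sign between the scalings, Catsper3 from pachytene-like to late spermatocytes (0.0035 against -0.35), and it was not called.

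Within spermatids, 9 clusters were ordered by the share of their UMIs from Tnp1, Tnp2, Prm1 and Prm2, from 0.302% to 19.65%. None of the 10 genes was used for that order. Shares overlapped between libraries for the clusters at 0.302% and 0.329%, for those at 11.2%, 12.2% and 12.55%, and for those at 19.3% and 19.65%. The order within each of these sets is not settled. From the cluster with a share of 0.302% to that with 0.518%, Lrrc52 went from 30.1 to 125 CPM (4.16 times), Catsper4 from 140 to 315 (2.25 times), Catsper3 from 122 to 260 (2.13 times) and Catsper1 from 57.2 to 92.1 (1.61 times). Kcnu1 went from 52.3 to 57.4 CPM (1.1 times). At a share of 3.39% Lrrc52 was at 123 CPM, Catsper4 at 285 and Catsper3 at 210.

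Among the 5 elongating clusters, the one at 12.2% stood apart with Catsper4 at 158 CPM, Lrrc52 at 67.3, Catsper3 at 55.6, Catsper1 at 45.9 and Kcnu1 at 27.2. It is also the deepest of them, with a median of 12554 UMIs a cell against 2379 to 7182 in the others, and the part of depth in these levels was not tested. In the 2 clusters above 19% these 5 genes were at 3.88 to 30.3 CPM. Catsper2 went from 324.5 CPM in the first to 53.6 in the last cluster, and Catsperz from 1642 to 555. Catsperd was lowest at a share of 0.518%, with 50.4 CPM, was at 70.3 at 3.39%, and was highest at 12.2%, with 133 CPM (129 to 137 over the 4 libraries). Catsperd was 1.89 times higher in that deep elongating cluster than in the last round cluster, while the other 9 genes were at 0.265 to 0.811 times.

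**Figure D2:**
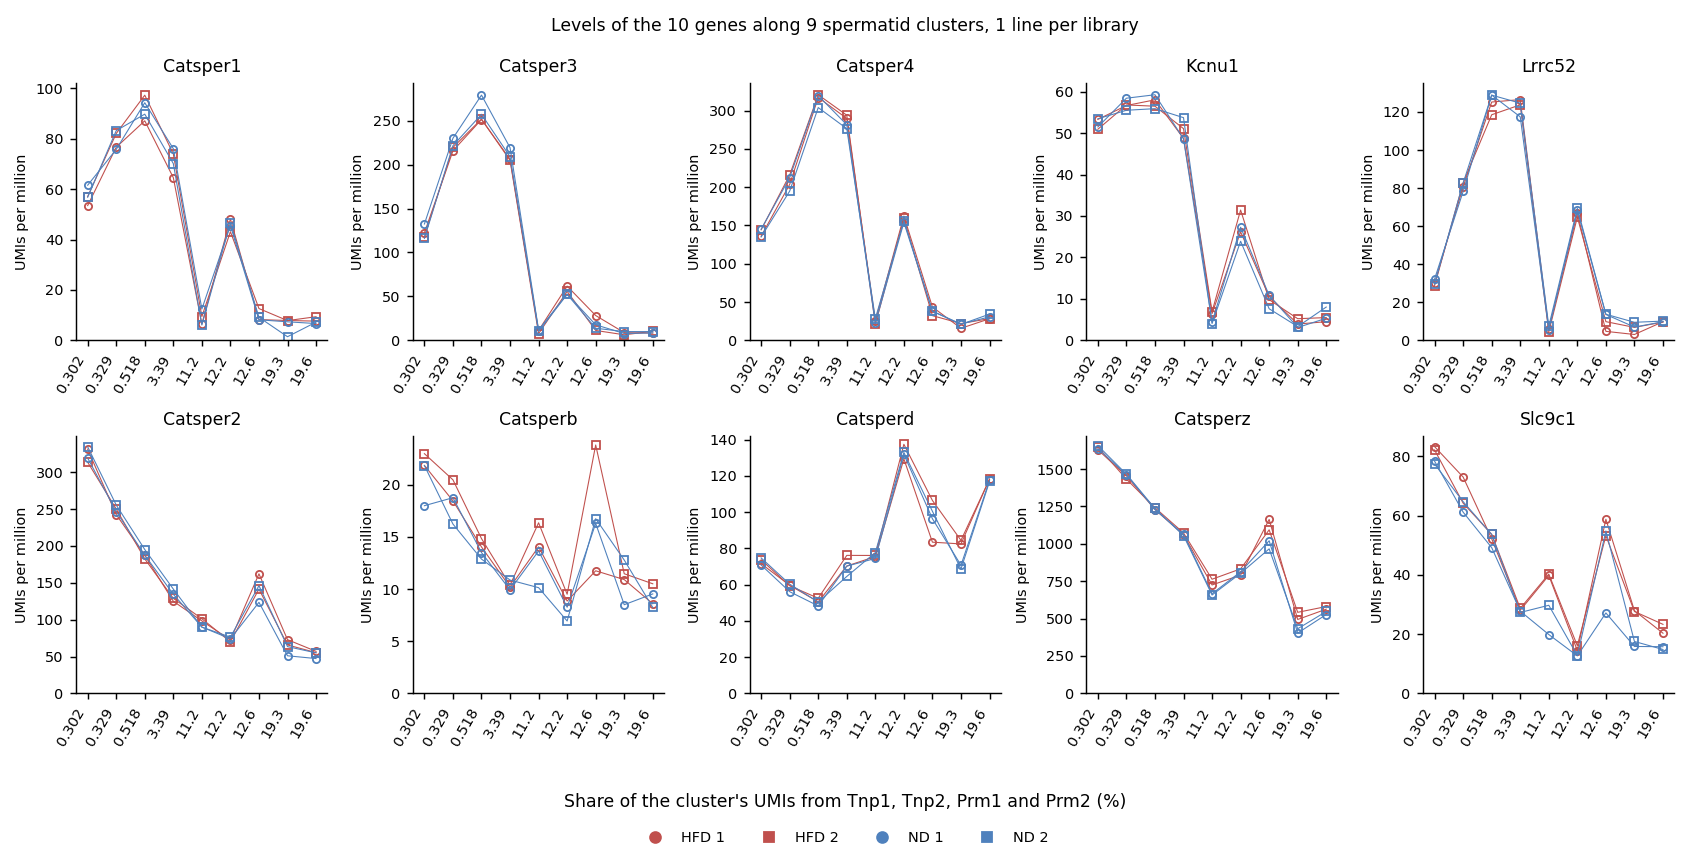
Level of each gene (UMIs per 1000000 UMIs of the cluster, linear axes from 0) in 9 spermatid clusters, with 1 line for each library (red, HFD; blue, ND). Clusters are equally spaced and ordered by their share of UMIs from transition protein and protamine genes. The top row rises to a share of 0.518% or 3.39% and has a second, lower peak at 12.2%. The cluster at 12.2% is the deepest elongating one. Its share overlapped between libraries with those at 11.2% and 12.55%, so its place in the order is not settled. Catsperd reaches 129 to 137 CPM at 12.2%.

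Likeness to other genes was measured as Pearson's r of log2(CPM + 1) over 20 points (5 germ-cell classes in 4 libraries), among 8773 genes with at least 20 CPM in a class. The points of 1 library share its depth, and the values are a description. The 3 genes nearest to Catsper4 were Izumo1 (0.998), 4930474N09Rik (0.997) and Pdilt (0.997), the first of them a sperm protein needed for fusion with the egg. Nearest to Catsper3 were 1700110C19Rik (0.995), Lyzl6 (0.995) and Rasal1 (0.995), and nearest to Catsper1 were 1700061G19Rik (0.996), Cldn34d (0.995) and 4930405A10Rik (0.994). Izumo1 and Lyzl6 are among the markers that named the round-spermatid-like class. Nearest to Lrrc52 were 4933436I01Rik (0.998), 1700031L13Rik (0.997) and 4930513D17Rik (0.997), and nearest to Kcnu1 were Stpg1 (0.990), Ypel3 (0.990) and Ccdc81 (0.988). Catsperz was nearest to Insl6 (0.997), Fam227b (0.997) and Cstf1 (0.996), and Catsper2 to Dmrtb1 (0.995), Ovol2 (0.995) and Slc35a3 (0.995). Dmrtb1 is 1 of the 12 spermatogonia markers. These markers summed to 1447 to 1501 CPM in late-spermatocyte-like and to 753 to 777 in early-spermatocyte-like cells. Nearest to Catsperb were 4931406C07Rik (0.997), Ocel1 (0.996) and Esyt2 (0.994), and to Slc9c1 Abca15 (0.993), Cd63 (0.991) and Ier5 (0.991). Catsperd had the least close neighbours of the 10, Ipo13 (0.959), Cfap97d2 (0.952) and Bet1l (0.940).

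The other genes of the CatSper complex, a list of 9, also divided by stage. Efcab9, a calcium sensor that binds Catsperz, was at 472 CPM in round-spermatid-like cells and 31.4 in late spermatocytes, although Catsperz was highest in late spermatocytes. Tmem262 was at 169 against 9.96 CPM and Tmem249 at 185 against 6.12. Slco6c1, a transporter-like member of the complex, was at 465 CPM in pachytene-like cells and 169 in round spermatids. Catspere2 was at 123 against 16.6 CPM in the same classes, Catspere1 at 24.4 against 1.52 and Catsperg2 at 97.8 against 22.3. C2cd6, a cytoplasmic protein of the complex, was at 183 and 247 CPM. From late to round spermatids 4 of these 9 genes were called higher and 5 lower, where 86.7% of all genes were called. Catspere1 is annotated as a pseudogene, and Catspere1 with Catspere2, and Catsperg1 with Catsperg2, are related copies between which reads could have been split.

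The diet comparison asks whether the RNA of these genes differs between testes of HFD and ND mice. Over all kept cells of each library, 5 of the 10 genes were called lower in HFD, 3 higher and 2 were not called (edgeR quasi-likelihood test). Of all 25470 genes tested 34.3% were called, 18.9% lower and 15.3% higher. The genes called lower were the 5 that were highest in round spermatids. The genes called higher, or not called, were the 5 that were highest in spermatocytes. In such sums, fewer cells of a type and less RNA per cell cannot be told apart.

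Among the genes called lower, Catsper3 was at 66.5 and 62.5 CPM in the HFD libraries and at 88.8 and 83.6 in the ND libraries. The log2 ratio of HFD over ND was -0.41 ± 0.0467 (SE; adjusted p = 2.55e-05, edgeR). Lrrc52 was at 31.8 and 29.4 CPM in HFD and at 39.7 and 40.8 in ND, a log2 ratio of -0.39 ± 0.0495. Catsper1 was at 27.1 and 28.1 against 35.7 and 34.96 CPM (-0.35 ± 0.0435), and Catsper4 at 88.4 and 86.3 against 109.9 and 105 (-0.30 ± 0.04097). Kcnu1 was at 22.3 and 22.2 CPM in HFD and at 26.4 and 26.6 in ND (-0.25 ± 0.0447). For all 5 genes both HFD libraries lay below both ND libraries.

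Among the genes called higher, Catsperb was at 32.4 and 35.1 CPM in HFD and at 27.9 and 28.3 in ND, a log2 ratio of 0.27 ± 0.0466. Slc9c1 was at 84.8 and 85.7 against 72.4 and 75.1 CPM (0.21 ± 0.0407), and Catsperd at 105 and 109 against 96.5 and 96.3 (0.16 ± 0.0388). Catsper2 was at 222 and 221 against 206 and 215 CPM (0.082 ± 0.0392) and was not called, with an adjusted p of 0.123 by edgeR. Catsperz was at 1405 and 1401 against 1329 and 1343 CPM (0.077 ± 0.0354) and was not called (adjusted p = 0.108, edgeR). All 10 genes had diet groups that did not overlap, as did 67.1% of all genes tested. Where 1 library is left out, here and below, 1 diet has a single library, which is assumed to vary like the other diet, so these p-values rest on the spread of 1 diet. Without HFD replicate 2 Catsperd was no longer called (0.15 ± 0.0504, adjusted p = 0.0542 by edgeR). Without ND replicate 2 Catsper2 (0.12 ± 0.0454) and Catsperz (0.089 ± 0.0367) were called as well.

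Among all genes the diet difference went with the ratio of round to late spermatocytes, a split that does not use the class of a gene's highest level. Of 6701 genes tested that were called and at least 2 times higher in round than in late spermatocytes, 54.5% were called lower in HFD and 0.149% higher, with a median log2 ratio of -0.255. Of 8169 genes called lower in round than in late spermatocytes, 44.5% were called higher and 0.857% lower, with a median of 0.151. The median of the 5 genes highest in round spermatids was -0.35 and that of the other 5 was 0.16, and the median of all 25470 genes was -0.02.

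The makeup of the libraries moved with these differences. Round-spermatid-like cells were 18.7% and 18.9% of kept cells in HFD and 23.4% and 23.8% in ND. Elongating-spermatid-like cells were 15.68% and 15.67% in HFD against 17.63% and 16.61% in ND. Pachytene-like cells were 9.77% and 11.4% in HFD against 8.90% and 7.82% in ND, and late-spermatocyte-like cells 7.88% and 8.75% against 6.85% and 6.91%. Early-spermatocyte-like cells overlapped between the diets (5.36% and 6.64% against 5.44% and 5.996%). Unnamed cells were 36.5% and 32.3% of kept cells in HFD and 30.1% and 31.2% in ND, and they count in the denominator of every share. The clusters were then weighted to the same makeup in every library and tested with limma on log2(CPM + 1). With that weighting 0 of the 10 genes were called in the whole testis, and 0 had an unadjusted p under 0.05, where 1.25% of all genes were called by limma. The weighted log2 ratios ran from -0.071 ± 0.0329 for Catsper3 to 0.078 ± 0.0354 for Catsperb, and that of Catsper4 changed sign, to 0.0090 ± 0.0281. Without the weighting, limma called the same 8 genes in the same directions as edgeR, and 34.6% of all genes.

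**Figure D3:**
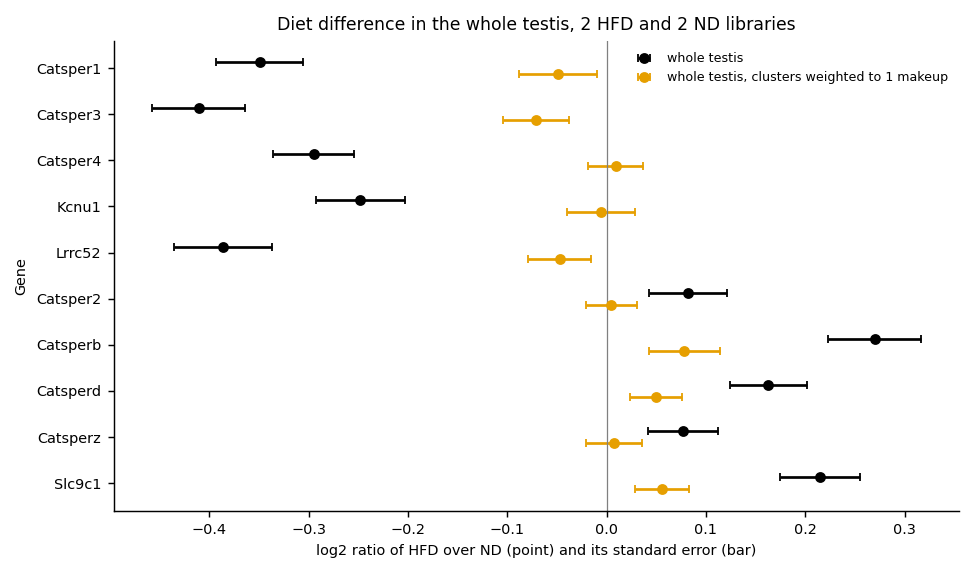
Log2 ratio of HFD over ND in the whole testis (points) with its standard error (bars), from 2 libraries of each diet. Black points are edgeR ratios of the plain sums, and orange points are limma ratios with clusters weighted to the same makeup in every library. The first 5 genes lie between -0.41 and -0.25 in the plain sums, and all 10 lie between -0.071 and 0.078 after weighting.

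Within germ-cell classes few of the genes were called by diet. All 10 passed the filter on low counts in each class. In early-spermatocyte-like cells 0 of 10 were called (1.72% of all genes), and 3 had an unadjusted p under 0.05 by edgeR. In pachytene-like cells 0 of 10 were called (1.82% of all genes), and 1 had an unadjusted p under 0.05. That 1 was Catsper3, at 6.91 and 6.11 CPM in HFD and 8.23 and 14.7 in ND (-0.78 ± 0.239, adjusted p = 0.0689, edgeR), a level close to that of macrophage-like cells. The value rests on the high ND replicate 2. Without that library the log2 ratio was -0.32 ± 0.295, and without ND replicate 1 it was -1.16 ± 0.263 and called (adjusted p = 0.00198, edgeR).

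In round-spermatid-like cells, where 5 of the genes were highest, 0 of 10 were called (1.88% of all genes), and 2 had an unadjusted p under 0.05 by edgeR. The log2 ratios ran from -0.14 for Catsper3 to 0.11. Catsper3 was at 198 and 196 CPM in HFD and at 219 and 207 in ND (-0.14 ± 0.0343, adjusted p = 0.0587, edgeR). Both HFD libraries lay below both ND libraries, and in this class 6 of the 10 genes had diet groups that did not overlap, against 47.5% of all genes. With 1 library left out, the log2 ratio of Catsper3 ran from -0.17 to -0.094. Catsper3 was not called by DESeq2, at Leiden resolution 2, with doublets kept, or by limma with or without the clusters weighted alike. With all 4 libraries it was called with the limit of 10% mitochondrial UMIs and with the replicate number as a block. Calls with 1 library left out rest on the spread of 1 diet and are counted in the closing section.

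**Figure D4:**
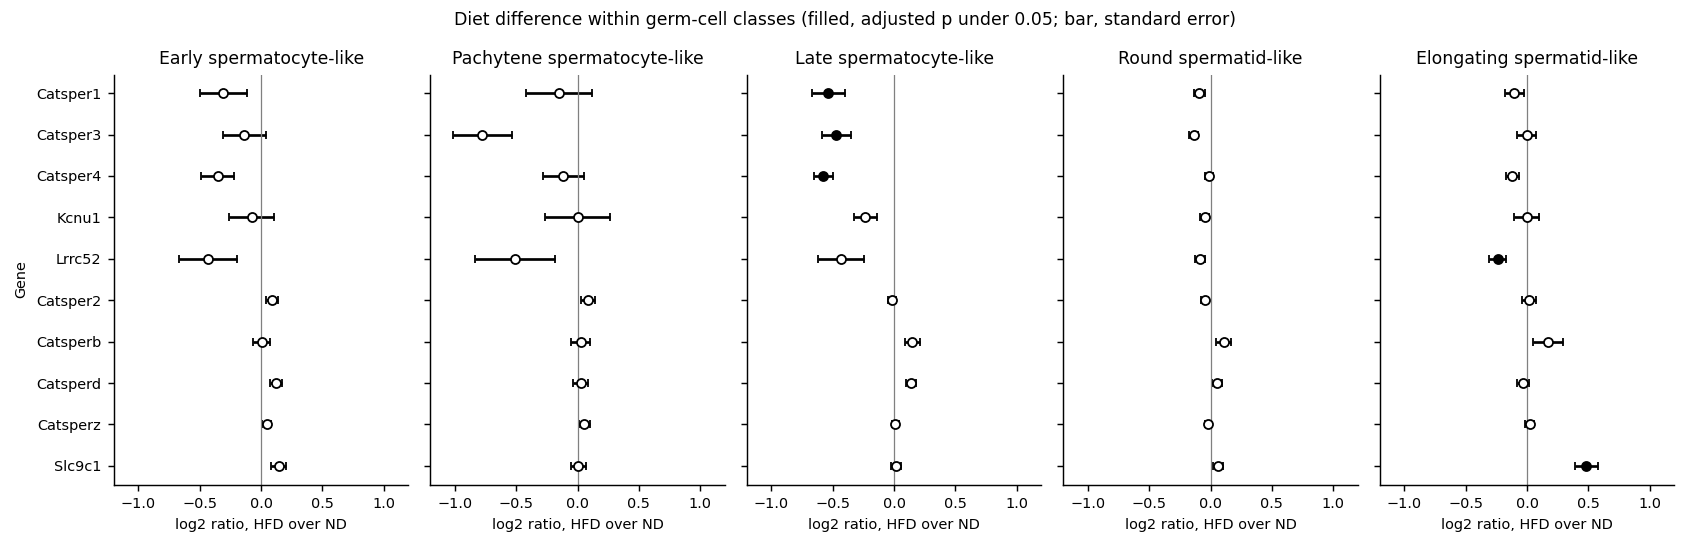
Log2 ratio of HFD over ND within each germ-cell class (points, edgeR) with its standard error (bars). Filled points have an adjusted p under 0.05. They are Catsper1, Catsper3 and Catsper4 in late-spermatocyte-like cells, at -0.58 to -0.47, and Lrrc52 (-0.24) and Slc9c1 (0.48) in elongating-spermatid-like cells.

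In late-spermatocyte-like cells 3 of 10 genes were called, all lower in HFD, against 9.68% of all genes called and 6.02% called lower. Catsper4 was at 14.4 and 15.7 CPM in HFD and at 23.2 and 22.03 in ND (-0.58 ± 0.0782, adjusted p = 0.000329, edgeR). Catsper1 was at 5.73 and 6.15 against 9.81 and 7.66 CPM (-0.54 ± 0.133), and Catsper3 at 5.84 and 5.87 against 8.19 and 8.22 (-0.47 ± 0.116). Both HFD libraries lay below both ND libraries for each gene. In this class 9 of the 10 genes had diet groups that did not overlap, against 53.1% of all genes. Each level of the 3 genes is near or below that of macrophage-like cells. The 12 round-spermatid markers, all detected, summed to 1100.5 and 1104 CPM in HFD late spermatocytes and to 1259 and 1250 in ND. The 12 elongating-spermatid markers, all detected, summed to 3938 and 3785 CPM in HFD and 4147 and 4646 in ND. Both sums moved the same way as the 3 genes, and their part in the result was not tested. With doublets kept Catsper3 was no longer called (-0.38 ± 0.114, adjusted p = 0.0569, edgeR). Without HFD replicate 1, or without HFD replicate 2, Catsper4 was the 1 gene of the 3 still called. Without ND replicate 1 Catsper1 was no longer called (-0.35 ± 0.149), and without ND replicate 2 the class had 5 calls.

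The class is made of 2 clusters that differ in these genes. Cluster 14 held 20.6 CPM of Catsper1, 20.4 of Catsper3, 55.5 of Catsper4 and 27.6 of Kcnu1, which is 6.93, 7.99, 8.13 and 4.52 times the levels of cluster 13. Cluster 13 made up 55.7% and 58.6% of the class in HFD and 43.2% and 46.7% in ND. Within cluster 14 Catsper4 was at 51.6 and 61.3 CPM in HFD and at 55.98 and 53.02 in ND, and the diets overlapped (log2 ratio 0.025 ± 0.0947). Within cluster 13 it was at 5.01 and 5.37 against 7.36 and 9.55 CPM (-0.70 ± 0.154, adjusted p = 0.0683, edgeR), at a level under that of macrophage-like cells. In neither cluster was any of the 10 genes called, against 0.271% of all genes in cluster 13 and 0.122% in cluster 14, and 2 and 0 genes had an unadjusted p under 0.05 by edgeR. With the 2 clusters weighted alike, limma called 0 of the 10 in the class, 0 had an unadjusted p under 0.05, and 0.178% of all genes were called. Without the weighting limma called the same 3 genes as edgeR, and 8.57% of all genes.

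**Figure D5:**
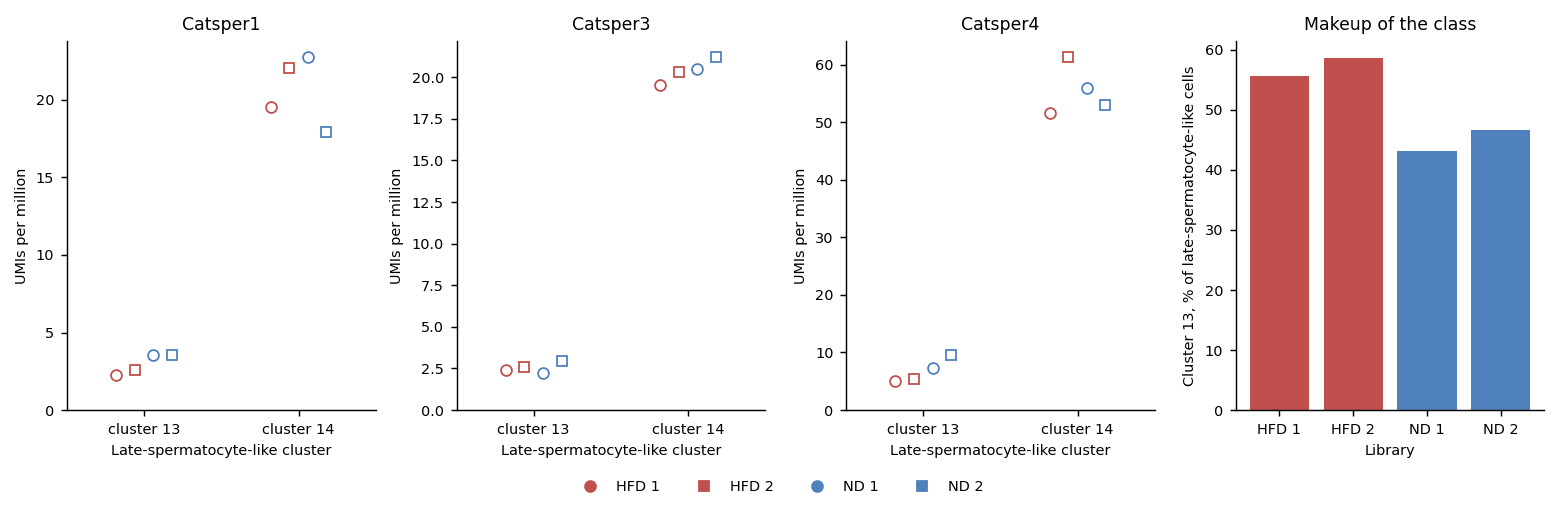
Levels of Catsper1, Catsper3 and Catsper4 (UMIs per 1000000 UMIs of the cluster, linear axes from 0) in the 2 late-spermatocyte-like clusters, with 1 point for each library, and the share of the class that is cluster 13 in each library (bars from 0). Levels are several times higher in cluster 14, and cluster 13 holds 55.7% and 58.6% of the class in HFD and 43.2% and 46.7% in ND.

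In elongating-spermatid-like cells 2 of 10 genes were called, against 7.63% of all genes (3.95% higher and 3.68% lower). Slc9c1 was at 22.5 and 23.8 CPM in HFD and at 15.1 and 16.99 in ND (0.48 ± 0.0928, adjusted p = 0.0014, edgeR), and the HFD libraries were the higher ones. These levels are all under the 75.03 CPM of macrophage-like cells, as is the share of cells. How much of them is free RNA was not tested. The 10 late-spermatocyte markers, all detected, summed to 606 and 624 CPM in HFD and to 481 and 519 in ND, and their part in the result was not tested. Without HFD replicate 2 the log2 ratio was 0.46 ± 0.118 and not called (adjusted p = 0.0691, edgeR). With clusters weighted alike it was 0.46 ± 0.0877 and was called by limma, where 5.46% of all genes were.

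Lrrc52 in the same class was at 33.1 and 33.1 CPM in HFD and at 37.8 and 37.8 in ND (-0.24 ± 0.0694, adjusted p = 0.03, edgeR). Its level stood above every somatic class, the highest of which was at 14.6 CPM. The deep elongating cluster, in which Lrrc52 is highest, made up 22.4% and 23.2% of the class in HFD and 26.7% and 26.0% in ND. Within that cluster the log2 ratio was -0.091 ± 0.0695, and with clusters weighted alike it was -0.089 ± 0.06795, neither called. Limma without the weighting did not call Lrrc52 either (-0.18 ± 0.0685, adjusted p = 0.092, limma), where 8.04% of all genes were called. Without HFD replicate 1 the log2 ratio was -0.24 ± 0.0935 (adjusted p = 0.197, edgeR), and without HFD replicate 2 it was -0.22 ± 0.0921 (adjusted p = 0.307, edgeR).

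Fitted in each of 13 germ-cell clusters alone, the 10 genes gave 125 tests, as 5 pairs of gene and cluster did not pass the filter on low counts. Of the 125 tests 0 were called and 14 had an unadjusted p under 0.05 (edgeR); the lowest adjusted p was 0.0683. Over these clusters 0.0527% (the deep elongating cluster) to 5.37% (the last spermatid cluster) of all genes were called.

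Whether the diet ratio itself differed between neighbouring classes was tested with the interaction of diet and class (edgeR). Of the 10 genes 2 were called between late spermatocytes and round spermatids, Catsper1 and Catsper4 (5.02% of all genes), and 1 between round and elongating spermatids, Slc9c1 (3.57%). Between early and pachytene-like spermatocytes no gene passed, that is 0 of 10 (0.677% of all genes), and 1 had an unadjusted p under 0.05. The step from pachytene-like to late spermatocytes gave 0 of 10 as well (2.2% of all genes), where 2 had an unadjusted p under 0.05. The sizes are given in the closing section.

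In Leydig-like cells, which make testosterone and not sperm channels, Catsperz was the 1 of the 10 genes called by diet (4.79% of all genes). It was at 480.4 and 449 CPM in HFD and at 337 and 359 in ND (log2 ratio 0.38 ± 0.0796, adjusted p = 0.0026, edgeR). These levels are below the 993 CPM of Catsperz in macrophage-like cells, which are shallower. Catsperz was found in 85.3% of Leydig-like against 89.1% of macrophage-like cells, and in 52.45% against 78.46% with cells thinned to equal depth. How much of the Catsperz in Leydig-like cells is free RNA was not tested. Leydig-like cells were 1.86% and 2.05% of kept cells in HFD and 2.83% and 3.00% in ND. The 10 pachytene markers, all detected, summed to 1495 and 1385 CPM in HFD Leydig-like cells and to 1093 and 1142 in ND, and the 10 late-spermatocyte markers, all detected, to 855 and 797 against 602 and 667. Both sums moved the same way as Catsperz, and their part in the result was not tested.

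Most of the other genes of the CatSper complex also divided in the whole testis by their stage. Of the 9 genes 5 were called higher in HFD, 3 lower and 1 was not called (34.3% of all genes called), with a median log2 ratio of 0.17 against -0.02 for all genes. Tmem249 (-0.38 ± 0.0445), Efcab9 (-0.37 ± 0.0397) and Tmem262 (-0.37 ± 0.0435) fell, and all 3 were highest in round spermatids. C2cd6, the 1 gene not called (-0.017 ± 0.0411), was also highest in round spermatids, and its diets overlapped, with 193 and 198 CPM in HFD and 193 and 205 in ND over the whole testis. Catspere1 (0.44 ± 0.07397), Catspere2 (0.31 ± 0.04600), Catsperg1 (0.18 ± 0.0454) and Catsperg2 (0.18 ± 0.0417) had the largest ratios of the 5 that rose. All 5 were highest in pachytene-like cells, the shallow cluster, and their levels in the deeper unnamed cluster are not given here. With clusters weighted alike 0 of the 9 were called by limma, and 4 had an unadjusted p under 0.05. In round-spermatid-like cells 0 of the 9 were called, and 4 had an unadjusted p under 0.05 by edgeR. In late-spermatocyte-like cells Efcab9 (-0.45 ± 0.0596), Tmem249 (-0.48 ± 0.124) and Tmem262 (-0.35 ± 0.0991) were called lower, at 31.4, 6.12 and 9.96 CPM, below the 36.2, 15.2 and 14.04 CPM of macrophage-like cells. In that class 9.68% of all genes were called and 6.02% called lower. With its clusters weighted alike, limma called 0 of the 9, and 0 had an unadjusted p under 0.05 (0.178% of all genes called), and Efcab9 (0.019) and Tmem262 (0.046) changed sign.

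Of 17 genes of sperm pH, bicarbonate, cAMP and ion transport, 14 were tested in the whole testis, and 1, Slc9c2, was not analysed here. Of the 14, 4 were called higher in HFD, 3 lower and 7 were not called (34.3% of all genes called), with a median log2 ratio of -0.014. The genes called higher were Kcnk4 (0.46 ± 0.1401), Atp2b4, a plasma membrane calcium pump (0.32 ± 0.0489), Slc26a8, an anion transporter of the sperm annulus (0.24 ± 0.0409), and Slc9b1, a sodium/proton exchanger (0.20 ± 0.0387). Kcnk4 had the low level given above and shares 1415 bases on the same strand with Catsperz, at 1369 CPM in the whole testis. Whether reads counted for Kcnk4 belong to Catsperz was not tested. On plain totals all 4 genes called higher were highest in pachytene-like cells, the shallow cluster. Their levels in the deeper unnamed cluster are not given here. For Slc26a8 the ratio of late to pachytene-like spermatocytes was -0.28 on plain totals and 0.027 with TMM scaling, where it was not called. Those called lower were Abhd2, a lipid hydrolase of sperm that binds progesterone (-0.32 ± 0.0429), Atp1a4, the sperm sodium pump (-0.26 ± 0.0452), and Atp1b3, a sodium pump beta subunit (-0.16 ± 0.0397). All 3 were highest in elongating spermatids. With clusters weighted alike 0 of the 14 were called by limma, and 5 had an unadjusted p under 0.05.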

How the data were processed

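Dissociated testis cells of 2 HFD and 2 ND libraries were captured in 10x droplets, and the authors deposited 1 matrix of UMI counts per library (raw counts per gene and cell barcode, made with software version 3.0.2 per the file headers, on mm10 per the submitters' processing notes). The aligner settings and the rule that chose the barcodes are not given in the sources used here. All 55450 gene identifiers matched GENCODE M21.

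Barcodes under 200 genes or over 20% mitochondrial UMIs (13 to 42 a library) were left out, and Scrublet marked 3.11% to 5.94% of barcodes as doublets, which were removed. Clusters came from scanpy 1.11.5 and igraph 0.11.9 (2000 variable genes, 30 principal components, 15 neighbours, Leiden resolution 1). A class is called X-like from listed markers only. Counts were summed per library and class and tested with edgeR 4.0.16 (filterByExpr, TMM, quasi-likelihood; R 4.3.3), with Benjamini-Hochberg adjustment over all genes of the class. DESeq2 1.42.0 and limma 3.58.1 gave alternatives, which the closing section describes. Levels are per 1000000 UMIs of the class. These are 3' tags, with 1 UMI a molecule, so gene length does not enter. The code was tested on simulated data. The SE of a log2 ratio was taken from its quasi-likelihood F, as the ratio's size over the root of F.

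The 10 genes and all lists were chosen with earlier results of these data known. Of the 2 other lists, genes past the threshold are named, at most 4 in each direction. For each of the 10 genes the 3 most like genes are named, leaving out the 10 and both lists. The replicate numbers of the labels do not pair libraries across diets by any label.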

Additional observations from a re-analysis of the deposited data

Results flagged for a closer look

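The diet ratio of 3 genes differed between neighbouring germ-cell classes in a test of the difference itself (edgeR, interaction of diet and class with library as a term), out of 10 genes in each of 4 pairs of classes. The diet ratio of Catsper4 was higher in round-spermatid-like than in late-spermatocyte-like cells by 0.552 ± 0.075 on the log2 scale (SE, adjusted p = 5.94e-09, edgeR), and that of Catsper1 by 0.43 ± 0.123 (adjusted p = 0.0178, edgeR). In this pair of classes 5.02% of all genes were called. The diet ratio of Slc9c1 was higher in elongating-spermatid-like than in round-spermatid-like cells by 0.435 ± 0.0884 (adjusted p = 0.000219, edgeR), where 3.57% of all genes were called.

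With the clusters of each class weighted alike (limma), the difference of Catsper4 was 0.18 ± 0.0632 (adjusted p = 0.437), that of Catsper1 0.089 ± 0.0825 (adjusted p = 0.832) and that of Slc9c1 0.38 ± 0.0787 (adjusted p = 0.0017). Limma without the weighting called all 3 (0.58, 0.42 and 0.42) and also Catsper3 between late spermatocytes and round spermatids (0.32). Catsper4 stayed called when any 1 library was left out. Catsper1 was not called without HFD replicate 1 (0.44), HFD replicate 2 (0.41) or ND replicate 1 (0.262). Slc9c1 was not called without HFD replicate 1 (0.494) or HFD replicate 2 (0.381). With doublets kept it was 0.353 ± 0.0898 and was not called either (adjusted p = 0.0542, edgeR). The levels of Catsper1 and Catsper4 in late spermatocytes and of Slc9c1 in elongating spermatids are near or below those of macrophage-like cells.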

How the results depend on the processing

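Weighting the clusters to 1 makeup, in a limma fit on log2(CPM + 1), took the called genes from 8 to 0 in the whole testis, from 3 to 0 in late and from 2 to 1 in elongating cells, and reversed Catsper4 in the whole testis (0.00896). The same limma fit without weighting called 8, 3 and 1, so in elongating cells the change of test alone gave that count. DESeq2 called 1 in late and 0 in elongating cells, where it gave Slc9c1 no adjusted p, and it called Catsperz in the whole testis. Leiden resolution 2 gave 1 call in pachytene-like and 1 in elongating cells, as did keeping doublets (1 and 1). In late cells resolution 2 gave 4 calls, with Kcnu1 added, and keeping doublets 2, without Catsper3. At resolution 2 classes of the same name hold other cells, so their counts are not of the same class. Its late class had 8645 cells (median 8625 UMIs a cell) against 4161 (16488) in the main setting. Its pachytene-like class had 4879 cells (median 19615) against 5194 (3261). The limit of 10% mitochondrial UMIs gave 1 call in round spermatids, a class of 13456 cells there against 11696 in the main setting. In cluster 13 alone and in cluster 14 alone 0 were called. Leaving out 1 library at a time gave 7 to 10 calls in the whole testis, 0 to 1 in pachytene-like, 1 to 5 in late, 0 to 2 in round and 0 to 2 in elongating cells, 34 to 36 between classes (36 with all libraries), and 1 to 4 differences of the diet ratio between classes (3 with all libraries, 1 without HFD replicate 1, 1 without HFD replicate 2). A fit with the replicate number as a replicate block called 1 gene in round spermatids, Catsper3 (-0.14, adjusted p = 0.0109, edgeR), where the fit without the block called 0, and added Catsperd in late cells (0.14). Deviations of same-numbered libraries correlated at 0.038 in the whole testis and -0.018 to 0.0083 in the classes. These deviations include counting noise, so the correlations cannot settle whether the numbers pair the libraries. Of the other class values that the text does not name, 516 over 43 pairs of gene and class, 51 changed sign, 0 of them called, and 7 became called. Between pachytene-like and late spermatocytes Slc9c1 changed sign with cluster 5 as pachytene (0.334), at Leiden resolution 2 (0.393) and with doublets kept (0.029). Catsper3, not called in that step, changed sign with DESeq2 (-0.0442), with doublets kept (-1.98), and without HFD replicate 1 (-0.00782), HFD replicate 2 (-0.0737) or ND replicate 1 (-0.0896); leaving out 1 library gave -0.0896 to 0.205. Beyond what the unweighted limma fit shows, the cause of these changes was not tested. Counting error limits Catsper1, Catsper3, Catsper4, Kcnu1 and Lrrc52 in spermatocytes, where a library gave 18 to 437 UMIs of each. Using cluster 5 as or with pachytene-like cells, single clusters, limma without weighting, and all alternatives for differences between classes were chosen after seeing the data.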

Other observations

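In elongating-spermatid-like cells 3 of the 9 tested genes of sperm pH, bicarbonate, cAMP and ion transport were called higher in HFD and 1 lower, against 7.63% of all genes. Slc26a8 (0.29 ± 0.09098), Slc9b1 (0.25 ± 0.05695) and Adcy10, the soluble adenylyl cyclase (0.17 ± 0.0554), were called higher, and Abhd2 (-0.21 ± 0.0491) was called lower. In these cells the 10 late-spermatocyte markers summed to 606 and 624 CPM in HFD and to 481 and 519 in ND, and their part was not tested. Slc26a8 and Slc9b1 were there at 19.2 and 88.6 CPM, below the 71.2 and 221 of macrophage-like cells, whereas Adcy10 was at 82.01 against 41.8 CPM and Abhd2 at 111 against 35.1. With clusters weighted alike, limma called the 3 higher genes and not Abhd2, where 5.46% of all genes were called; limma without the weighting called all 4.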
